A study of Mus musculus with 36 samples.

Results

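The Ugt2b cluster is a run of related genes on mouse chromosome 5 that encode UDP-glucuronosyltransferases of the 2B family. The 7 genes described here are, in their order along mm9, Ugt2b34, Ugt2b1, Ugt2b35, Ugt2b36, Ugt2b5, Ugt2b37 and Ugt2b38. They were chosen by name, and each was taken from 5 kb upstream of its annotated start to 1 kb past its end. These gene regions held 594 of the 18887127 autosomal CpGs of the count table and 7 of 21418 autosomal protein-coding genes. UDP-glucuronosyltransferases sit in the membrane of the endoplasmic reticulum and join glucuronic acid to steroid hormones, bile acids and drugs, so that these can leave the body in bile or urine. In liver, enzymes of the 2B family are made mainly by hepatocytes. Around the start site of an active gene, CpG methylation is generally low.

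DNA methylation was measured by whole-genome bisulfite sequencing of liver DNA from 24 mice, 3 in each of 8 groups. The parents were inbred sires and dams, either C57BL/6N (called B6) or C3H/HeN (called C3). The B6C3F1 sons and daughters had B6 dams and C3 sires, and the C3B6F1 sons and daughters had C3 dams and B6 sires. Mating took place at 10 weeks, weaning was at week 16 and all animals were sacrificed at week 20, so that the dams had borne pups and the daughters had not. Each animal is 1 replicate, and the labels used here do not say which offspring belong to which parent. Whole liver holds several cell types, and a change in their shares cannot be told apart from a change of methylation within a cell type.

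Animals had 19.4 to 32.8 reads per autosomal CpG and 75.05 to 77.5% methylation over autosomal CpGs. Start regions of 6 hepatocyte genes lay between 18.2 and 60.4% methylation in single animals, those of 5 leukocyte and Kupffer cell genes between 72.8 and 92.6%. Among 5 genes of endothelial and stellate cells, Stab2 and Cdh5 lay between 62.1 and 79.2%, Dcn between 28.7 and 36.4%, and Kdr and Lrat between 3.77 and 8.74%. None of these 16 start regions passed the test between sires and dams or between F1 sons and daughters, and Apob (6.39 points higher in B6) and Cd3e (-3.81 points) passed it between B6 and C3 parents (limma, adjusted p = 0.039 and 0.0207).

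The span of the 7 gene regions was chr5:87317792-87858228, or 540.436 kb. Ugt2b35 (chr5:87429885-87442299) is on the plus strand and the other members are on the minus strand. Those are Ugt2b34 (chr5:87318792-87335962), Ugt2b1 (chr5:87345663-87355555), Ugt2b36 (chr5:87494952-87521580), Ugt2b5 (chr5:87553981-87569365), Ugt2b37 (chr5:87669518-87683829) and Ugt2b38 (chr5:87838967-87853228). The gene regions were poor in CpGs, with 3.91 per kb against 7.89 per kb over the autosomes. In the order along the chromosome they held 80, 78, 99, 111, 80, 77 and 69 CpGs. The strains had few single-nucleotide variants (SNVs) there, 15 in 152067 bp, while the autosomes had 1.17 per kb. The coding sequences of Ugt2b5 and Ugt2b38 were alike at 97.0% of aligned bases, those of Ugt2b5 and Ugt2b37 at 94.7% and those of Ugt2b37 and Ugt2b38 at 94.1%. Ugt2b34 and Ugt2b1 were the most distant, at 72.6 to 75.6% to any other member. Reads from near-identical exons could be placed at the wrong member, which was not tested.

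The sequences below come from windows that the results turn on, each 300 bases of mm9 on the plus strand, with the CpGs of the count table in capitals. The Ugt2b36 stretch holds the region that differed most between the sexes. It runs from coding exon 5 into intron 4 at chr5:87510056-87510355, and 5 of its 6 CpGs make up the differentially methylated region (DMR).
Ugt2b36: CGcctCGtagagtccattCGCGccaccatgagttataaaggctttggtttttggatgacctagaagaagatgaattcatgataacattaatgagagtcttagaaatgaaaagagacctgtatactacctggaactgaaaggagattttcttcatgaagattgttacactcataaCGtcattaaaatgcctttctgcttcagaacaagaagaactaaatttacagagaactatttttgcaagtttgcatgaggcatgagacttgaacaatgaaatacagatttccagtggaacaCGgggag
The first Ugt2b5 stretch, in intron 3 at chr5:87560051-87560350, comes from the window with the smallest p between the strains. The second, chr5:87566161-87566460, comes from a window that was higher in females. The remaining CpG of that window, 87566044, lies outside the stretch and differed most, at 48.3% in sires and 70.5% in dams (pooled reads).
Ugt2b5 intron 3: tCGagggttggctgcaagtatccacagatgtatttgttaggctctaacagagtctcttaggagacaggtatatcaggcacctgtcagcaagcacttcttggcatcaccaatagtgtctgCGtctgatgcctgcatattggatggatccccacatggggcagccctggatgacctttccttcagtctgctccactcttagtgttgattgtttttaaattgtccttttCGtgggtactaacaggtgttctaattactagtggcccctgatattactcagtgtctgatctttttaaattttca
Ugt2b5 second window: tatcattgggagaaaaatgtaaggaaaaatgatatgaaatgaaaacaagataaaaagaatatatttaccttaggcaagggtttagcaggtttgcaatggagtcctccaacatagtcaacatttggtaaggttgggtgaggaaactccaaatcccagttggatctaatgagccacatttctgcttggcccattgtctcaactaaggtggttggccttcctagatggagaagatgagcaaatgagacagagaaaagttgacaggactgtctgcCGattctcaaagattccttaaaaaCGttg
The Ugt2b37 stretch lies in coding exon 1 at chr5:87683106-87683405 and comes from the window that was lower in dams than in sires.
Ugt2b37: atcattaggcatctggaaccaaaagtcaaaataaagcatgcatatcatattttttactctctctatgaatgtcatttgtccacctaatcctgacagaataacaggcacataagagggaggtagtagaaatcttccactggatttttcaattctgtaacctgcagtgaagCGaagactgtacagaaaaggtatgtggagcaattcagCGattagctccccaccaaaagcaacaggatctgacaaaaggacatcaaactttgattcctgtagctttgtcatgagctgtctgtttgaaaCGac

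Across all animals, methylation around the start sites differed widely among the members, lowest in Ugt2b34 and highest in Ugt2b38. In start regions, taken as 1 kb on each side of the start, methylation over the 24 animals was 15.0% ± 3.11 (SD) in Ugt2b34, 27.0% ± 4.31 in Ugt2b35 and 30.6% ± 2.58 in Ugt2b36. It was 32.6% ± 3.47 in Ugt2b1, 48.7% ± 4.67 in Ugt2b5 and 62.0% ± 5.98 in Ugt2b37. In Ugt2b38 it was 86.2% ± 3.24. The levels of Ugt2b35, Ugt2b36 and Ugt2b1 overlapped within their SDs, while animals did not overlap between Ugt2b37 (48.7 to 70.4%) and Ugt2b38 (79.9 to 90.7%). Over 20822 start regions of autosomal genes, Ugt2b34 was higher than 47.7% of them and Ugt2b38 higher than 92.0%.

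CpGs with under 30% methylation in all animals together made up 17.2% of the 594 CpGs (102 CpGs), against 11.9% of autosomal CpGs. Ugt2b34, Ugt2b35 and Ugt2b36 had 20 such CpGs each, Ugt2b1 had 18, Ugt2b5 had 12, Ugt2b37 had 8 and Ugt2b38 had 4. Within 1 kb of the start, all 5 CpGs of Ugt2b34 were that low, as were 10 of 13 in Ugt2b1, 8 of 12 in Ugt2b35 and 6 of 8 in Ugt2b36. The other low CpGs of these genes lay further into the gene, but for 1 upstream of Ugt2b34. In Ugt2b37 only 2 of 10 CpGs near the start were low and in Ugt2b38 none of 8, while 4 and 3 low CpGs lay further upstream. Ugt2b5 had 4 low CpGs of 7 near the start, 4 further into the gene and 4 further upstream.

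**Figure D1:**
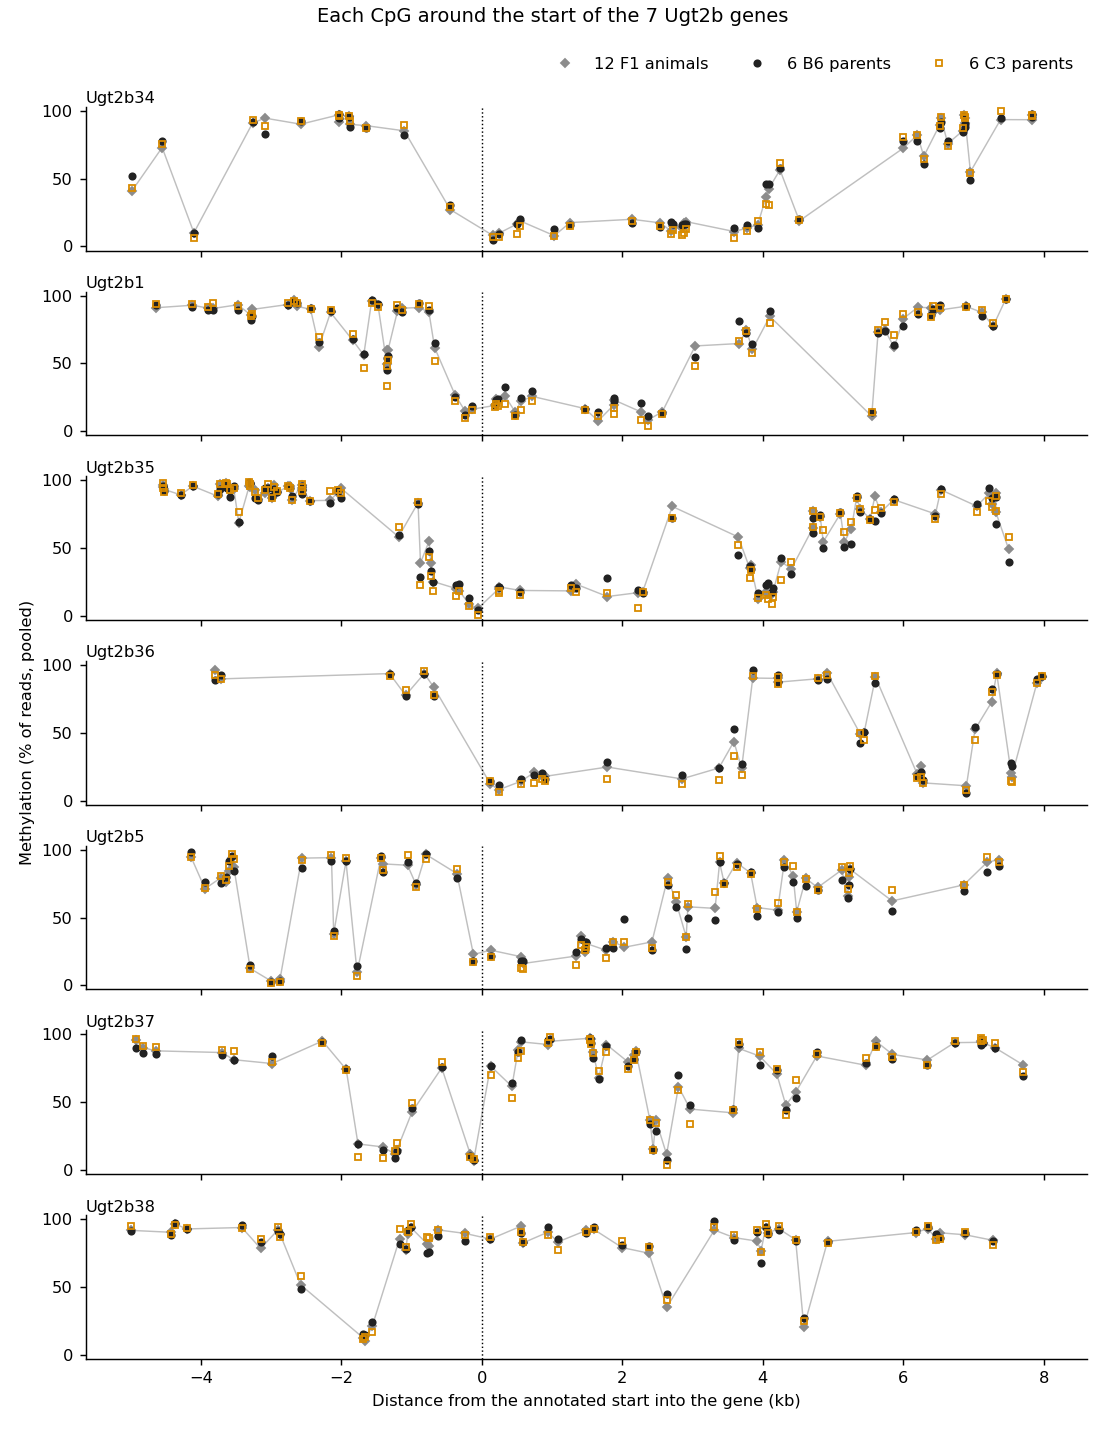
Methylation of each CpG (percent of pooled reads) against the distance in kb from the annotated start into the gene, 1 panel per gene, in 6 B6 parents (circles), 6 C3 parents (open squares) and 12 F1 animals (diamonds). CpGs near 0 are low in Ugt2b34, Ugt2b1, Ugt2b35 and Ugt2b36 and high in Ugt2b38, and the symbols of the 3 sets mostly lie on each other.

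Over whole gene regions the members lay closer together, from 63.0% ± 1.13 (SD, n = 24) in Ugt2b34 to 81.1% ± 1.30 in Ugt2b38. Ugt2b1, Ugt2b5, Ugt2b35 and Ugt2b36 were at 66.4% ± 2.41, 66.5% ± 3.32, 66.9% ± 1.85 and 67.7% ± 3.20, which overlapped within their SDs. Ugt2b37 was at 74.4% ± 1.57. The SDs of Ugt2b5 and Ugt2b36 were larger than those of the other 5 members, and these genes also had the largest differences between the sexes, given below.

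**Figure D2:**
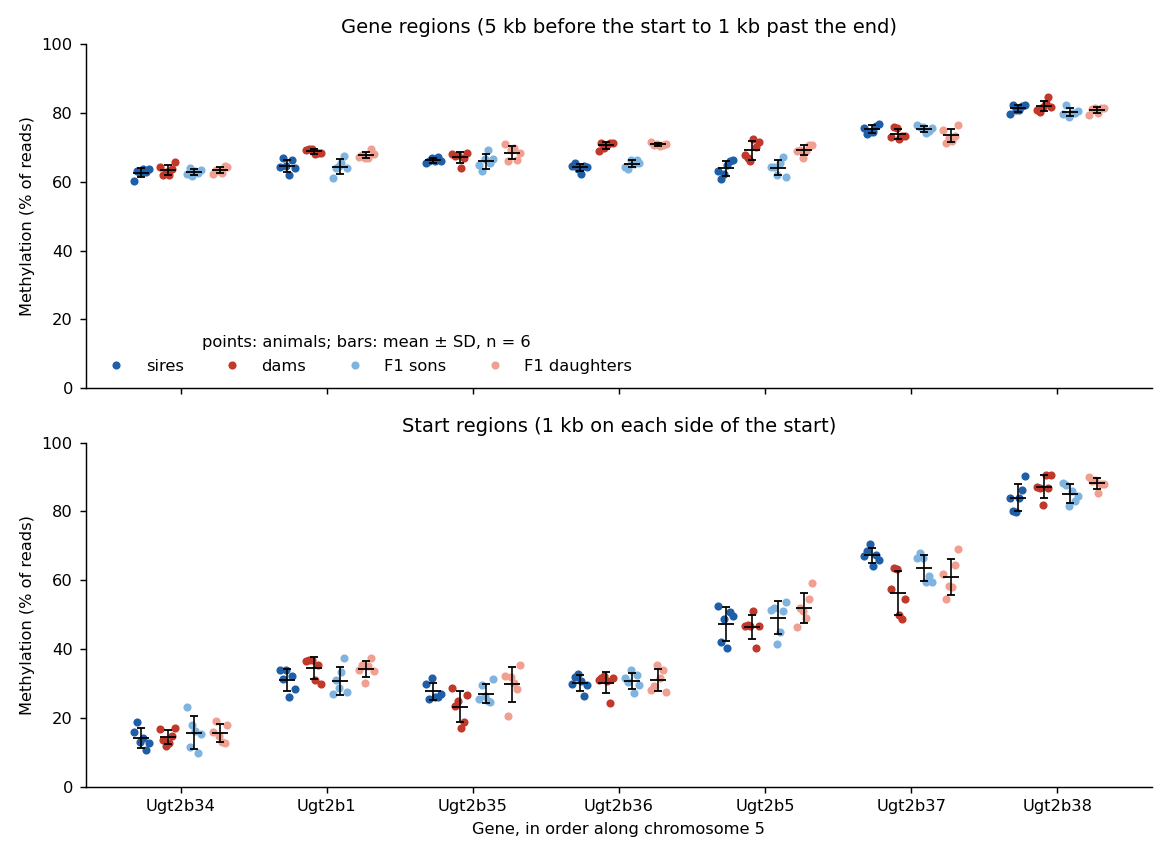
Methylation (percent of reads) of gene regions (top) and start regions (bottom) of the 7 genes, with each animal as a point and mean ± SD of 6 sires, 6 dams, 6 F1 sons and 6 F1 daughters. Dams and daughters lie above sires and sons in the gene regions of Ugt2b36 and, with some overlap, of Ugt2b5 and Ugt2b1, and the start regions span 15.0 to 86.2%.

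Sires were compared with dams to find how methylation differs by sex in the parents. The dams had also borne and nursed pups, and in this comparison that cannot be told apart from sex. Dams were higher in Ugt2b36, Ugt2b5 and Ugt2b1 and lower around the start of Ugt2b37, while Ugt2b34, Ugt2b35 and Ugt2b38 did not pass the test. In the gene region of Ugt2b36 the 6 sires ranged from 62.3 to 65.4% (mean 64.1% ± 1.07, SD) and the 6 dams lay at 68.9% or above (mean 70.5% ± 0.960). No dam overlapped a sire, and dams were 6.40 points higher (limma on the log2 ratio of methylated over unmethylated counts, difference 0.42 ± 0.04 SE, adjusted p = 7.34e-07). Ugt2b5 was 5.23 points higher in dams (0.34 ± 0.06, adjusted p = 0.000408) and Ugt2b1 4.19 points higher (0.27 ± 0.05, adjusted p = 0.00136). The ranges of sires and dams overlapped in Ugt2b5 and lay apart in Ugt2b1.

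These were 3 called of 7 members, all higher in dams, against 13.3% of all 21122 gene regions tested. Over all genes the direction was mostly the other one, with 290 gene regions higher and 2518 lower in dams. The median of the 7 differences was 0.882 points, and that of all genes was -0.507. The members that were not called lay between -1.36 points (Ugt2b37) and 0.882 points (Ugt2b35).

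In the F1 animals the same comparison gave 2 called members, Ugt2b36 and Ugt2b5, both higher in daughters, where 0.582% of all gene regions were called. Unlike in the parents, most of the gene regions called among all genes were higher in females, with 79 higher and 44 lower in daughters. The gene region of Ugt2b36 was at 65.2% ± 1.00 (SD, n = 6) in sons and 70.8% ± 0.392 in daughters, with no overlap, a difference of 5.60 points (log2 0.37 ± 0.04, adjusted p = 7.77e-06). Ugt2b5 was at 64.1% ± 2.14 and 69.2% ± 1.44, a difference of 5.08 points (0.33 ± 0.06, adjusted p = 0.00312). Ugt2b1 was 3.35 points higher in daughters and missed the threshold (adjusted p = 0.0696). It passed without C3 sire 1, C3 sire 2 or C3B6F1 son 2 (adjusted p = 0.047, 0.0487 and 0.0386). It also passed with the replicate number as a block in the limma fit (adjusted p = 0.0182). No member passed a test that the sex difference itself differed between parents and F1 or between B6 and C3.

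Summed over all 7 members, methylation was 67.7% ± 0.720 (SD, n = 6) in sires, 70.3% ± 0.5497 in dams, 67.9% ± 0.571 in sons and 70.2% ± 0.595 in daughters. Males and females did not overlap in either generation. The 3 autosomal genes outside the cluster with the most similar pattern over the 24 animals were C1rl on chromosome 6 (Pearson r = 0.970), Cmah on chromosome 13 (r = 0.958) and Mup7 on chromosome 4 (r = 0.956), of 21080 genes compared. The 24 points share the split by sex.

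The difference in Ugt2b36 was focused on a DMR of 176 bp at chr5:87510056-87510231, with 5 CpGs. Of these CpGs, 4 lie in coding exon 5 of 6, and the fifth, at 87510230, lies in intron 4. Methylation of the 5 CpGs together was 30.0, 29.3 and 23.3% in the 3 B6 sires and 21.2, 9.49 and 27.5% in the 3 C3 sires. It was 79.7, 83.5 and 87.1% in the B6 dams and 86.5, 91.1 and 94.9% in the C3 dams. Every dam was thus far above every sire in both strains, with means of 87.1% ± 5.39 (SD, n = 6) and 23.5% ± 7.65, a difference of 63.7 points.

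The F1 animals, which the call in the parents did not use although they are offspring of such parents, showed the same split. The 3 B6C3F1 sons were at 26.0, 13.3 and 28.3% and the 3 C3B6F1 sons at 38.9, 31.3 and 17.9%. The B6C3F1 daughters were at 88.4, 88.2 and 84.7% and the C3B6F1 daughters at 73.3, 77.7 and 81.3%. No daughter overlapped a son, and the means of 82.3% ± 6.03 and 25.9% ± 9.25 differed by 56.4 points. The two-sided exact permutation test gave p = 0.00216, which is the lower limit for 6 against 6, and 0.00433 after adjustment over the 4 comparisons made. Among these 4, dams against sires used the animals that gave the call. Its p was bound to be low, which also lowers the adjusted value. Dams and daughters differed by 4.84 points (exact permutation p = 0.173, adjusted 0.231) and sires and sons by -2.48 points (p = 0.626, adjusted 0.626). Between 99 and 237 reads per animal lay behind these values.

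The split was much smaller at the next CpG on either side. All 5 CpGs of the DMR were differentially methylated CpGs (DMCs, p below 1e-05 by a beta-binomial Wald test) in both generations. At 87510074, for example, pooled methylation was 20.7% in sires, 93.0% in dams, 23.3% in sons and 88.6% in daughters. Further into the gene, the next CpG, at 87509948 in the same exon, was low in all 4 sets, at 14.5, 12.0, 8.24 and 21.4%. On the other side, the CpG at 87510349 in intron 4 was high in all 4, at 88.6, 90.5, 89.6 and 94.4%. The DMR thus lies where low CpGs meet high ones, low in males and high in females.

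**Figure D3:**
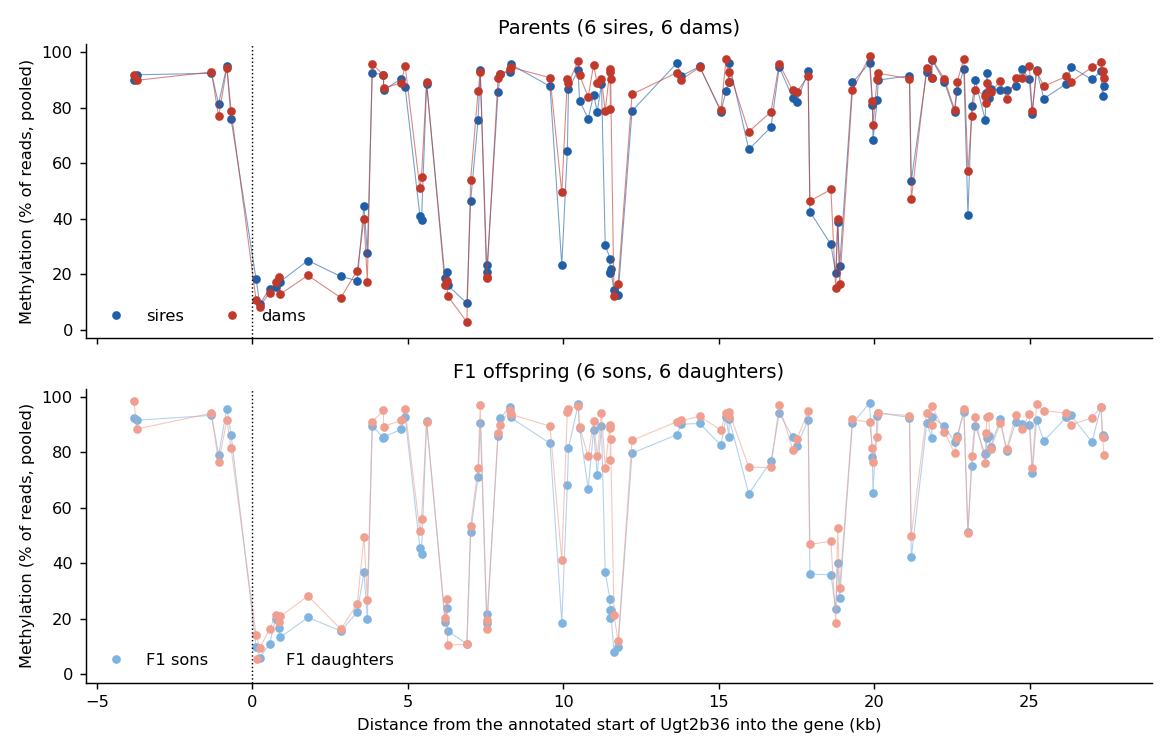
Methylation of each CpG of Ugt2b36 (percent of pooled reads) against the distance in kb from its annotated start into the gene, in 6 sires and 6 dams (top) and 6 F1 sons and 6 F1 daughters (bottom). About 11.5 kb into the gene the 5 CpGs of the DMR lie near 25% in males and 85% in females in both panels, and most other CpGs lie close together.

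Among all autosomal CpGs 350 DMRs separated dams from sires and 164 separated F1 daughters from F1 sons, and in each comparison 1 of them lay in a member. At the level of CpGs, 7 of 592 member CpGs were DMCs between dams and sires, 6 higher and 1 lower in dams, against 0.0863% of autosomal CpGs. In the F1 animals 8 of 591 were DMCs, all higher in daughters, against 0.0428%. This count was 5 without B6C3F1 son 1. Most DMCs of the autosomes had the same direction. Between dams and sires 11332 were higher and 4726 lower in dams, and in the F1 animals 7449 were higher and 514 lower in daughters. The 5 CpGs of the DMR share reads, so that they are not 5 separate observations.

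The DMCs outside the DMR were 4 single CpGs in 4 genes. At 87356229, 674 bp upstream of the start of Ugt2b1, pooled methylation was 36.1% in sires, 81.8% in dams, 45.6% in sons and 77.6% in daughters, and this CpG was a DMC in both generations. Single animals did not overlap between the sexes in either generation, with sires at 20 to 52.4% and dams at 80.6 to 87.1%. At 87511447, in intron 3 of Ugt2b36, the values were 64.6, 90.4, 68.3 and 94.4%. This CpG passed the threshold for DMCs in the F1 animals and not in the parents, as did 87564882 in intron 3 of Ugt2b5, at 40.6, 63.5, 38.9 and 68.1%. Whether the generations differ at these CpGs was not tested.

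The remaining DMC went the other way. At 87683402, in coding exon 1 of Ugt2b37 and 427 bp into the gene, pooled methylation was 77.0% in sires, 41.5% in dams, 73.3% in sons and 51.9% in daughters, and it was a DMC in the parents and not in the F1 animals. Dams, at 22.2 to 64.1%, all lay below sires, at 73.0 to 79.2%. Daughters ranged from 34 to 75% and overlapped the sons.

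The genome was also cut into windows of 500 nt, and 87 windows of the cluster had the 3 CpGs and 30 reads per animal needed. Windows with fewer were not tested, so that the window test covers only part of each member. It covered least of Ugt2b38, with 7 of 34 windows that hold a CpG (27 of their 68 CpGs). The most was covered in Ugt2b1, with 14 of 28 windows (58 of 81 CpGs). A called window had a limma adjusted p under 0.05 and differed by 20 points or more. Between dams and sires 1 member window was called, against 0.110% of all windows, and between F1 daughters and sons 1, against 0.0571%. Both calls are the Ugt2b36 window at chr5:87510001-87510500, which holds the DMR. It was 49.9 points higher in dams (log2 difference 3.59 ± 0.19 SE, adjusted p = 1.78e-12) and 41.8 points higher in daughters (2.86 ± 0.19, adjusted p = 4.51e-10).

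Without a minimum difference 7 member windows passed between dams and sires, against 0.789% of all windows, and 6 between F1 daughters and sons, against 0.288%. Windows of Ugt2b36, Ugt2b1 and Ugt2b5 were higher in females in each of these, and the Ugt2b37 window was lower in dams. The median difference over the 87 windows was 0.746 points between dams and sires and 1.62 points in the F1 animals, and over all windows -0.708 and -0.135 points. The second Ugt2b36 window that passed, at chr5:87511001-87511500 in intron 3, was 10.6 points higher in dams and 9.98 points higher in daughters (adjusted p = 0.00288 and 0.0018). In the F1 animals no female overlapped a male, while dams (85.3 to 94.8%) and sires (76.4 to 88.6%) overlapped.

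Upstream of Ugt2b1, in the window chr5:87356001-87356500, the B6 sires were at 77.1, 75.9 and 73.3% and the C3 sires at 61.3, 72.9 and 71.9%. The B6 dams were at 85.4, 87.95 and 88.4% and the C3 dams at 85.7, 90.1 and 92.1%. All dams lay above all sires, by 16.2 points on average (log2 1.46 ± 0.22, adjusted p = 0.000136). Sons ranged from 61.9 to 80.7% and daughters from 81.8 to 90.2%, again with no overlap and with 13.6 points between the means (1.16 ± 0.22, adjusted p = 0.00627). Of the 3 CpGs of the window, 87356310 and 87356456 were above 85% in all 4 sets, so that the difference came from 87356229.

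In Ugt2b5 windows in introns 1 to 3 were higher in females. In chr5:87564501-87565000 sires ranged from 54.3 to 70.6% and dams from 74.3 to 81.4%, 15.6 points apart on average (adjusted p = 0.000134), and sons from 58.9 to 68.5% and daughters from 75.2 to 82.7%, 14.7 points apart (adjusted p = 0.000529). All 4 CpGs there were higher in dams in the pooled reads. In the F1 animals 87564753 hardly differed, at 78.7% in sons and 79.0% in daughters, and the others were higher in daughters. In chr5:87566001-87566500 sons ranged from 29.9 to 45.8% and daughters from 51 to 67.6%, with 19.8 points between the means (log2 1.15 ± 0.19, adjusted p = 0.00114). Dams were 17.97 points above sires there (1.06 ± 0.19, adjusted p = 0.00162), and C3 sires 2 and 3, at 55.3 and 51.0%, overlapped the dams. Without B6C3F1 son 2, B6C3F1 daughter 3, C3B6F1 son 1, C3B6F1 son 2 or C3B6F1 daughter 1 this window passed 20 points in the F1 animals, at 20.4 to 21.6 points, so that 2 member windows were called.

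In the other Ugt2b5 windows that passed, dams were 9.79 points above sires in chr5:87564001-87564500 (adjusted p = 0.0133) and daughters 12.7 points above sons in chr5:87565001-87565500 (adjusted p = 0.0115). Each of these passed in that generation, and the same window in the other generation differed by 1.89 and 7.53 points (adjusted p = 0.946 and 0.199).

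In exon 1 of Ugt2b37, in the window chr5:87683001-87683500, the B6 sires were at 85.4, 89.2 and 85.3% and the C3 sires at 89.7, 86.1 and 89.3%. The B6 dams were at 74.3, 76.1 and 83.2% and the C3 dams at 51.1, 60.2 and 70%. All dams lay below all sires, and the C3 dams lay below all B6 dams. The mean difference of dams minus sires was -18.3 points (log2 -1.53 ± 0.22, adjusted p = 9.48e-05), and it reached -20.7 points without C3 dam 3, so that 2 member windows were then called.

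Sons and daughters overlapped in this Ugt2b37 window, at 82.7 to 90.7% and 68.1 to 88.4%, and the difference of -8.06 points did not pass (adjusted p = 0.297). The difference between dams and sires was -8.76 points in B6 and -27.9 points in C3. The difference between these, 19.1 points, did not pass the test over all windows (limma adjusted p = 0.866). Of the 3 CpGs of the window, 87683402 differed by -35.4 points (dams minus sires, pooled reads), and 87683275 and 87683312 by -6.53 and -11.3 points. The start region of Ugt2b37, which holds this window, was also lower in dams. It was at 56.2% ± 6.38 (SD, n = 6) against 67.2% ± 2.13 in sires, by -10.97 points (log2 -0.67 ± 0.11, adjusted p = 0.000494). It was the 1 member called, where 0.706% of all start regions were. Between F1 daughters and sons no member start region was called, against 0.235% of all, and Ugt2b37 differed by -2.55 points (adjusted p = 0.868).

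**Figure D4:**
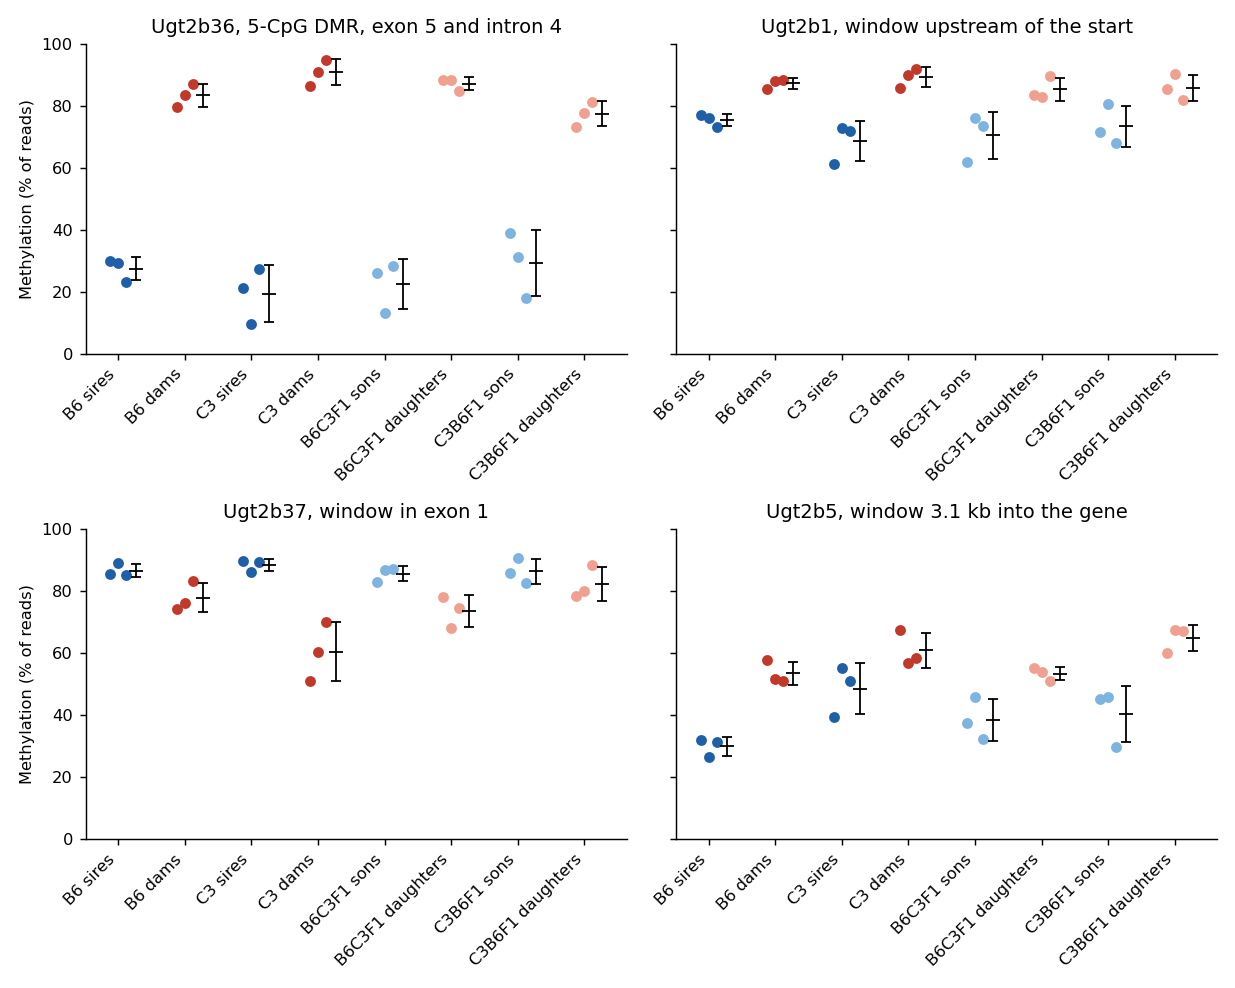
Methylation (percent of reads) of each of 24 animals (points) in the Ugt2b36 DMR and in the windows upstream of Ugt2b1, in exon 1 of Ugt2b37 and 3.1 kb into Ugt2b5, by the 8 groups of 3 animals. The Ugt2b36 DMR separates males from females in every strain and cross, and in Ugt2b37 the 3 C3 dams lie at 51.1 to 70%, with 1 B6C3F1 daughter at 68.1% among them.

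Within the strains, where 3 dams were compared with 3 sires in the same model, 2 member windows were called in B6 (0.100% of all windows) and 3 in C3 (0.157%). The Ugt2b36 window was called in both, 44.0 points higher in B6 dams and 55.8 points higher in C3 dams (adjusted p = 3.18e-07 and 4.86e-10). The Ugt2b5 window at 87566001 was called in B6, 23.6 points higher in dams (adjusted p = 0.0104), and was 12.3 points higher in C3 dams. In C3 the Ugt2b1 window (20.6 points higher in dams, adjusted p = 0.00152) and the Ugt2b37 window (-27.9 points, adjusted p = 0.000134) were called, and in B6 these differed by 11.8 and -8.76 points. No member window was called for the difference of the sex difference between B6 and C3, where 0.000698% of all windows were. For the difference between parents and F1 animals none was called either, against 0.0149%, and the smallest p was that of a window in exon 1 of Ugt2b36 (-8.27 points, adjusted p = 0.589).

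B6 was compared with C3 parents to find how methylation differs by genotype. No member CpG was a DMC (0 of 592, against 0.373% of autosomal CpGs), no DMR lay in a member (0 of 1700) and no member window was called (0 of 87, against 0.436% of all windows). At an unadjusted p below 0.05 there were 20 member windows (22.99%, against 16.8% of all windows). At any difference 5 member windows passed the adjusted p, where 4.75% of all windows did. These 5 were 3 windows of Ugt2b5 and 1 of Ugt2b38 with less methylation in B6, and 1 of Ugt2b36 with more.

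The window with the smallest p lay in intron 3 of Ugt2b5, at chr5:87560001-87560500. The B6 sires were at 40.8, 39.8 and 40.0% and the B6 dams at 52.2, 56.3 and 47.4%. The C3 sires were at 53.4, 47.7 and 68.0% and the C3 dams at 73.1, 68.5 and 63.9%. C3 sires 1 and 2 lay within the range of the B6 dams, while within each sex all B6 animals lay below all C3 animals. The means of 46.1% ± 7.04 in B6 and 62.4% ± 9.82 in C3 differed by -16.3 points (log2 -0.96 ± 0.19, adjusted p = 0.00131), and the F1 animals had a mean of 52.3%.

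The second Ugt2b5 window, at 87566001, was lower in B6 by -13.1 points (adjusted p = 0.0103), with B6 at 41.7% ± 13.3 and C3 at 54.7% ± 9.22. The B6 sires lay below the C3 sires, at 26.5 to 31.9% against 39.5 to 55.3%, and the dams overlapped, at 50.9 to 57.8% against 56.9 to 67.4%. The window at 87564001 differed by -7.38 points (adjusted p = 0.0289). In Ugt2b36 the window chr5:87517501-87518000 in intron 3 was 14.7 points higher in B6 (57.4% ± 8.74 against 42.8% ± 8.38, adjusted p = 0.0223). Upstream of Ugt2b38 the window chr5:87854001-87854500 differed by -6.46 points (adjusted p = 0.0488).

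Over whole gene regions 1 member was called between the strains, against 27.8% of all gene regions. This was Ugt2b5, at 64.4% ± 2.82 in B6 and 68.5% ± 3.21 in C3, a difference of -4.14 points (log2 -0.27 ± 0.06, adjusted p = 0.00117). The difference had the same sign within sires (-3.78 points) and within dams (-4.49 points), and neither overlapped. The median of the 7 members was -0.122 points and that of all genes -0.965. Ugt2b38, at -1.42 points (adjusted p = 0.0838), passed without B6 sire 2 or C3 dam 3, at -1.75 and -1.74 points. In those fits 2 of 7 members were called, and 5556 and 5042 of all 21122 gene regions. Ugt2b38 also passed with the replicate number as a block in the limma fit (adjusted p = 0.0462).

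Of the start regions 2 were called between the strains, against 14.4% of all. Ugt2b37 was higher in B6, at 65.0% ± 4.68 against 58.4% ± 8.31 in C3, by 6.64 points (adjusted p = 0.0114). The dams did not overlap, at 61.4% ± 3.52 in B6 and 51.1% ± 3.02 in C3, and the sires did, at 68.7% ± 1.63 and 65.7% ± 1.47. Ugt2b38 was lower in B6, at 83.3% ± 3.21 against 88.0% ± 2.84, by -4.74 points (adjusted p = 0.00876). B6 and C3 animals overlapped in both. With the mean of the CpGs on the arcsine scale in place of summed counts, which changes both weighting and scale, neither was called, at 2.97 points (adjusted p = 0.406) and -3.67 points (adjusted p = 0.0576).

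Read depth over the members was close to the autosomal mean of each animal in both strains. Relative depth was 1.03 in B6 and 1.14 in C3 parents in Ugt2b34, 0.9895 and 1.022 in Ugt2b1, 1.00 and 1.04 in Ugt2b35, 0.969 and 1.03 in Ugt2b36, 0.968 and 1.00 in Ugt2b5, 1.05 and 1.08 in Ugt2b37, and 0.949 and 1.06 in Ugt2b38. B6 was lower in all 7, with a median log2 difference of -0.05 against -0.03 over all genes. Ugt2b34 and Ugt2b38 were called, both at -0.15 (adjusted p = 0.00432 and 0.0277), 2 of 7 members where 42.9% of all gene regions were called. Ugt2b38 was not called without B6 sire 2, B6 dam 3, C3 sire 1, C3 dam 2 or C3 dam 3 (adjusted p = 0.0624 to 0.0825), which left 1 call. None of the 594 CpGs lay within 10 bp of an SNV. Whether depth had a part in the strain differences of Ugt2b38 was not tested.

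**Figure D5:**
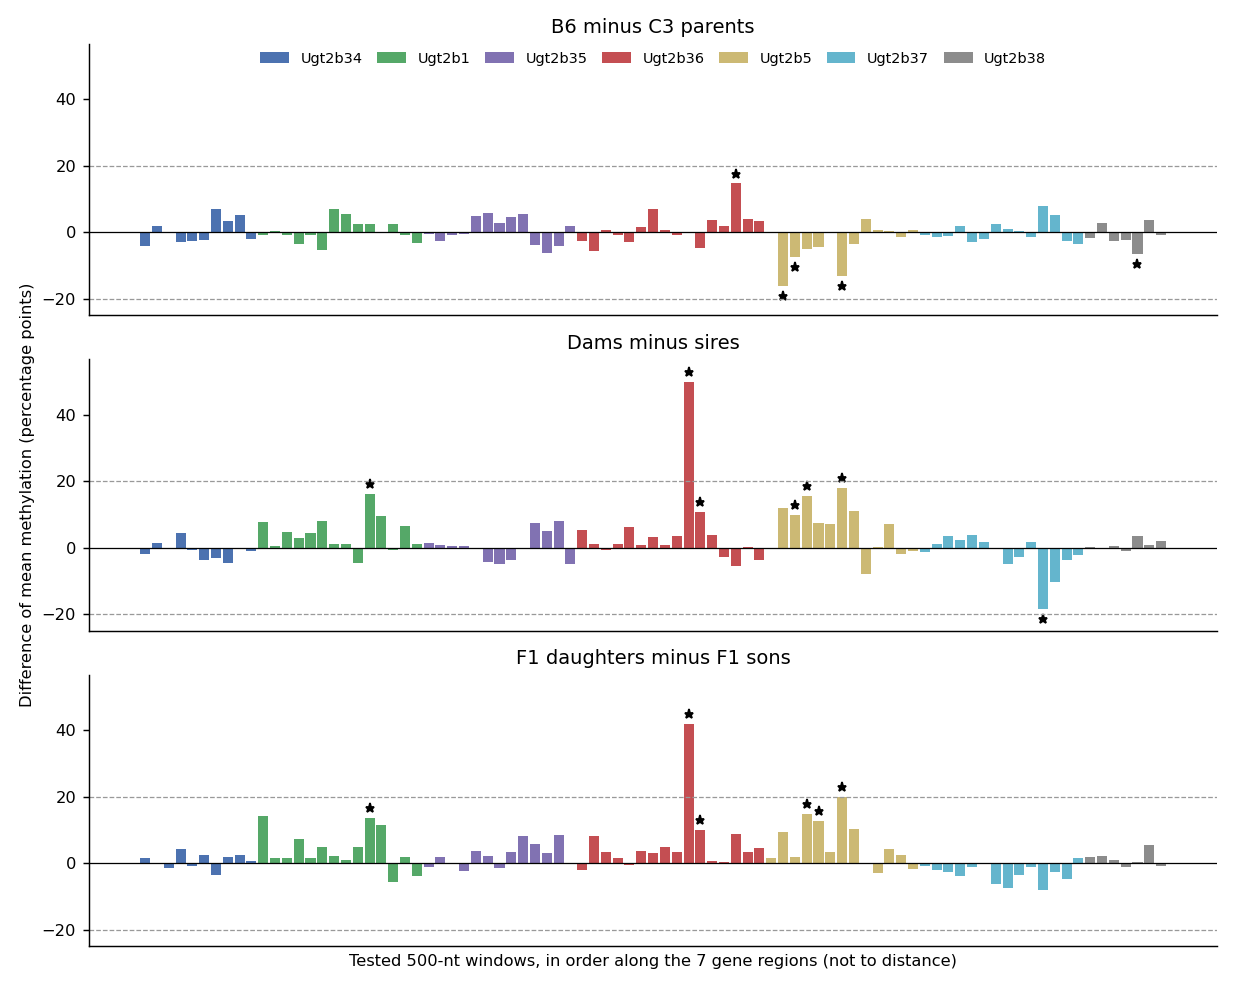
Difference of mean methylation in percentage points for each of the 87 tested windows, in order along the 7 gene regions and not to distance, for B6 minus C3 parents, dams minus sires and F1 daughters minus F1 sons. Stars mark an adjusted p below 0.05 and dashed lines 20 points in either direction, and the Ugt2b36 window stands out at 49.9 and 41.8 points in the sex comparisons.

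Dams were compared with F1 daughters because they had borne and nursed pups, and their inbred genotype also differs from the hybrids. No member CpG was a DMC (0 of 591, against 0.0151%) and no member window was called (0.0179% of all windows). At an unadjusted p below 0.05 there were 16 of 87 windows (18.4%, against 7.45% of all windows), and the smallest p was that of a window in intron 5 of Ugt2b37, 5.84 points higher in dams (adjusted p = 0.320). Between sires and F1 sons none was called (0.00120% of all windows), 5 had an unadjusted p below 0.05 (5.75%, against 6.20% of all), and the smallest p was upstream of Ugt2b5 (7.97 points, adjusted p = 0.524). Between B6C3F1 and C3B6F1 animals none was called (0.000426%), 5 had an unadjusted p below 0.05 (5.75%, against 6.26% of all), and the smallest p lay in intron 1 of Ugt2b37 (-6.61 points, adjusted p = 0.687). In windows simulated from the whole genome, the window test recovered 53.5% of differences of 20 points between dams and daughters and 98.5% of those of 30 points. A difference of 20 points falls on the cutoff of a call, so that part of these fails whatever the depth. The test per CpG recovered 67.9% of simulated differences of 30 points and 97.5% of those of 50 points, so that smaller differences may have gone unseen. The simulations changed only windows and CpGs of higher methylation, with a spread between animals that was set in advance. The simulated CpGs came from a single chromosome. These rates therefore need not hold for the members.

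Other genes of the pathway were counted from a list of 21, of which 20 were tested. Their gene regions held 8 called between the strains, against 27.8% of all gene regions. All 8 were lower in B6, as were 5007 of the 5872 called among all genes. The 8 were 4 related transferases (Ugt8a, Ugt2a1, Ugt3a1 and Ugt3a2) and 4 regulators (Nr1i3, Nfe2l2, Hnf4a and Ahr). Between dams and sires 3 of the 20 were called, a share near the 13.3% of all gene regions. Ugt8a (-3.96 points, adjusted p = 0.0223) and Nr1i3, the receptor CAR that senses drugs (-3.21 points, adjusted p = 0.0267), were lower in dams. Nr1h4, the bile acid receptor FXR, was higher (2.19 points, adjusted p = 0.0328). None was called between F1 sons and daughters. The 3 genes that supply UDP-glucuronic acid and the 3 for removal and export of glucuronides were not called in any of these comparisons.

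The windows were also searched on both strands for the letters TTCNNNGAA, the core site of STAT5, and TGTTTAC, a core site of FOXA factors. The first was in 14 of 87 member windows (16.1%, against 16.8% of all tested windows) and the second in 10 (11.5%, against 7.18%). Neither was found in the 500 nt of the Ugt2b36, Ugt2b1 and Ugt2b37 windows that differed between the sexes, nor in the Ugt2b5 window at 87566001.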

How the data were processed

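The samples were livers of 24 mice in 8 groups of 3, and 12 FOXA1 ChIP and input samples were not analysed here. The deposited files hold counts of methylated and unmethylated reads per CpG and animal, not normalized. The authors aligned reads to mm9 with Bismark 0.7.8 and Bowtie 0.12.8, removed duplicates and kept CpGs present in mm9 and both strains. Counts on autosomal CpGs summed to 365740739 to 619888157 per animal. The deposited SNV list, of unit other, gave SNV positions.

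Methylation was the methylated share of counts summed over a region. Windows of 500 nt (at least 3 CpGs and 30 reads in every animal), gene regions (5 CpGs, 100 reads) and start regions (3 CpGs, 30 reads) were tested with limma 3.58.1 in R 4.3.3 on log2 ratios with a pseudocount of 1, 1 mean per group, trended and robust variances, and Benjamini-Hochberg adjustment over all autosomal features. DMCs (p below 1e-05, unadjusted) came from an own Wald test for beta-binomial counts that follows DSS but does no smoothing, over CpGs with at least 5 reads in 50% of the animals of each group. A DMR had at least 5 CpGs, 75% of them DMCs, over at least 50 bp and at least 20 points of difference. Single values were compared by two-sided exact permutation tests, which for 3 against 3 cannot go below 0.1. Genes came from GENCODE for mm9. Both tests were checked on simulated data. Of 100000 simulated windows 200 were changed by 20 points and 200 by 30 points between dams and sires, and 60.0% and 100.0% of these were called. The change of 20 points equals the cutoff of a call, so that part of these fails whatever the depth. The test per CpG called 67.0% of 1582 CpGs changed by 30 points, among 519757 CpGs of a single chromosome. Of the unchanged CpGs, 1.28% had a p below 0.05 in this Wald test.

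The text names all 7 members, called windows with the largest differences and no overlap, DMRs, and where no window was called the one with the smallest p. Other windows past the adjusted p, single DMCs and neighbouring CpGs were named after their values were seen. Members, lists and tests were chosen with earlier results of these data known. Alternatives were other minimums of CpGs, reads and difference, a pseudocount of 5, the arcsine scale, shifted windows, thinned reads, CpGs near SNVs left out, other DMC thresholds, the replicate number as a block and each animal left out. One start region of the pathway list and one stretch of sequence are not reported here.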

Additional observations from a re-analysis of the deposited data

Results flagged for a closer look

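In 4 of 76 groups of 6 animals tested, a single animal lay apart from the other 5 by more than the 95% limit of Dixon's test, and chance alone gives about 1 in 20 groups. In the gene region of Ugt2b34, B6 sire 1 was at 60.1% and the other sires at 62.6 to 63.5%. In the gene region of Ugt2b35, C3 dam 1 was at 64.03% and the other dams at 66.8 to 68.3%. In the start region of Ugt2b36, C3 dam 2 was at 24.3% and the other dams at 30.7 to 32.3%. In the window upstream of Ugt2b1, C3 sire 1 was at 61.3% and the other sires at 71.9 to 77.1%. The 4 animals were different ones, and no cause was tested.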

How the results depend on the processing

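Of 519 alternative counts of member windows, CpGs or regions, 500 stayed within 1.5 times the reported count. Some could hardly move, since counts of 0 that stayed 0 were included. No member CpG lay within 10 bp of an SNV, and many fits left out an animal outside the comparison. Among 1618 alternative values of single members and windows, 0 changed direction where the reported or the alternative value was called. Uncalled values did change sign, as in the start region of Ugt2b34 between F1 daughters and sons (-1.62 to 1.28 points). With a minimum difference of 10 points, 3 of 87 member windows were called between the strains (57260 of all 2580465), 6 between sires and dams (14285 of all) and 5 between F1 sons and daughters (6312 of all). With the mean of CpGs on the arcsine scale, 0 start regions were called between the strains, and Ugt2b35 was called among the gene regions in the F1 animals (2.94 points, adjusted p = 0.0183). Leaving out each animal in turn gave 5 to 8 DMCs between F1 sons and daughters and 6 to 8 between sires and dams. It gave 1 to 2 windows in each of these comparisons, 1 to 2 gene regions between the strains, 2 to 3 gene regions between F1 sons and daughters and 1 to 3 members that differed in read depth (Ugt2b36 was gained at -0.12 without C3 sire 3).

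Whether same-numbered animals are paired was not settled. The deviations of 84 such pairs from their group means had correlations of -0.00855 to 0.062. Only 1 of 24 animals correlated best with its own number in every other group. This cannot decide it, since a family does not span all groups. Among the daughters of its cross, every son correlated best with the same-numbered one (0.00923, 0.0109 and 0.00884 in B6C3F1, 0.062, 0.0177 and 0.0193 in C3B6F1). Same-numbered B6C3F1 and C3B6F1 sons, which are not siblings, had correlations much like those in B6C3F1 (0.00951, 0.0111 and 0.00398). With the replicate block, 2 of 7 gene regions were called between the strains, and 6422 of all 21122 (Ugt2b38 at -1.42, adjusted p = 0.0462) and Ugt2b1 was called between F1 sons and daughters (adjusted p = 0.0182). No cause of these changes was tested. Counting error limits a window of 30 reads far more than a gene region.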
